A study of Mus musculus with 12 samples.

Results

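A run of 456 neighbouring transcripts in the row order of the deposited tables, from uc008zxy.1 in row 39146 to uc009ano.2 in row 39601, was described in mouse cells that were wild type, heterozygous or null for Chd8. The run makes up 456 of the 55419 transcripts in the tables. It was marked out because its transcripts stood higher, as a block, in cells without Chd8 than in wild-type cells of both cell types, while heterozygous cells lay near wild type. The members were thus chosen by measured values, the log2 fold changes of null and heterozygous against wild-type cells along the rows. Those differences are given below as a description with no test of the block, and nothing is supported with them.

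RNA was sequenced from embryonic stem cells (ESC) grown in 2i, a medium whose inhibitors keep them naive and pluripotent, and from neural progenitor cells (NPC) derived from such ESC. Each cell type came as wild type (WT), CHD8+/- (HET) and CHD8-/- (KO), with 2 libraries in each of 6 groups and 12 libraries in all, and every library was made from rRNA-depleted total RNA with a stranded SMARTer kit. The labels name no strain, no number of lines per genotype, no way in which the alleles were made and no protocol or length of differentiation. Nor do they say whether 2 libraries of a group are separate cultures, and the spread behind each p-value is that between these libraries, possibly a technical one. A genotype may thus be a single line, and a property of a line cannot be told apart from its genotype.

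CHD8 is a helicase of the CHD family that uses ATP to move nucleosomes, and it is found at the promoters of many active genes. Damaging variants in 1 of its copies are among the recurrent findings in people with autism, often with a large head. ESC can form every lineage of the embryo, and NPC are dividing cells that give rise to neurons and glia. In bulk RNA, fewer cells of a type and less RNA per cell cannot be told apart.

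The tables name transcripts by UCSC-style identifiers and pair none of them with a gene. The gene tables at hand matched 0 of these identifiers, so no member is given a gene name, a role, a sequence or a position in the genome. The markers of ESC and NPC and Chd8 itself could not be looked up for the same reason, and the cell type and genotype labels were not checked against them. The tables do not say what the order of rows follows. The estimated counts of a library summed to between 9062447 and 14766212, and a single transcript outside the run, uc009vew.1, held 10.1% to 27.4% of them.

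Of the 456 members, 48 had no count in any library and 119 had some but too few to be tested. The other 289 were tested, and 200 of these had a mean of at least 2 CPM (counts scaled to a common library size, with libraries adjusted by TMM) over the 12 libraries. These 200 are the described members, and they were set against 19918 described transcripts of the whole series. No described member passed the filter through KO libraries alone, since for 0 of them fewer than 2 of the 8 WT and HET libraries reached the cutoff. Among all 289 tested members that number was 16. The mean of at least 2 CPM did draw on the KO libraries, since 192 of the 200 had it over the WT and HET libraries alone. In each library 300 to 326 members had a count. The members resembled other transcripts in length, with a median of 2815 bases among the described members and 2961 among all described transcripts. Short RNAs of up to 300 bases made up 2.85% of the 456 members, against 8.21% of all transcripts.

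Across the 6 groups, the median level of the described members was the same in WT and HET to within a few hundredths of a log2 unit. It was higher in KO, by more in NPC than in ESC. The summed level of the run, given further on, did not follow this order. The relative level of a library is the median, over the 200 described members, of each member's log2 CPM minus its mean over the 6 libraries of that cell type, less the same median over all described transcripts. In ESC it was -0.10 and -0.08 in the WT libraries, -0.05 and -0.07 in HET and 0.12 in both KO libraries. In NPC it was -0.18 and -0.10 in WT, -0.16 and -0.10 in HET, and 0.28 and 0.32 in KO. Both KO libraries lay above all 4 other libraries in each cell type. The HET libraries lay just above the WT libraries in ESC, by less than 0.05, and among them in NPC.

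**Figure D1:**
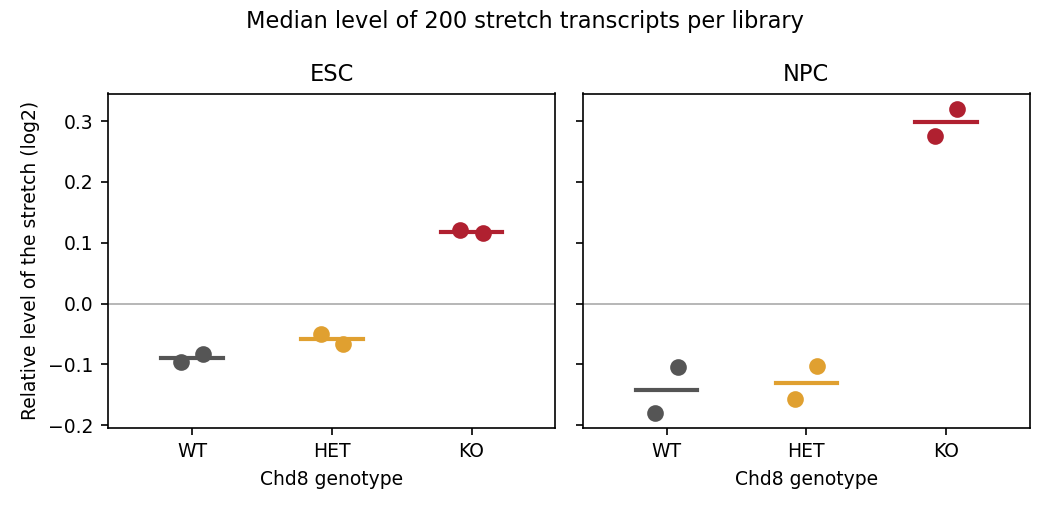
Relative level of the 200 described members in each library (vertical axis, log2, centred within each cell type) by Chd8 genotype, with points for the 2 libraries of a group and a bar for their mean. The KO libraries stand at 0.12 and 0.12 in ESC and at 0.28 and 0.32 in NPC, above every WT and HET library of the same cell type.

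The median log2 fold change of the described members between KO and WT was 0.26 in ESC, where all described transcripts had 0.03. The shift, which is the difference of these medians, was thus 0.23 ± 0.0097 (SD from the relative levels, n = 2 libraries per group), or 1.18-fold. In NPC the members had a median of 0.40 and all described transcripts -0.01, a shift of 0.41 ± 0.062 (SD, n = 2), or 1.33-fold. HET shifted by 0.04 ± 0.015 against WT in ESC and by -0.01 ± 0.065 in NPC (SD, n = 2 each). Against HET, KO stood 0.17 ± 0.012 higher in ESC and 0.42 ± 0.05 higher in NPC (SD, n = 2 each), so the KO level was raised against either of the other genotypes. The comparisons with WT share the WT libraries, and those with KO share the KO libraries. ESC and NPC share none.

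For scale, a similar median was taken between the 2 libraries of a group, from log2 CPM and not from the fit. It differed from 0 by 0.00059 to 0.081. Each KO shift was larger than any of these differences, and both HET shifts lay within their range. The run was chosen for this order of KO and HET, so the comparison is no test of it. The SDs above are from 2 libraries and understate how far the ESC shift depends on the WT libraries. Leaving out WT ESC replicate 1 gave 0.19, and leaving out WT ESC replicate 2 gave 0.28. In NPC the shift was 0.34 when WT NPC replicate 1 was left out and 0.50 when WT NPC replicate 2 was. With the members' mean CPM taken over the WT and HET libraries alone, the KO shift was 0.25 in ESC and 0.42 in NPC.

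The KO shift was 1.77 times as large in NPC as in ESC on the log2 scale. The difference was 0.18 ± 0.063 (SD, n = 2 libraries in each of 4 groups), and it ran from 0.11 without WT NPC replicate 1 to 0.27 without WT NPC replicate 2. With HET in place of WT as the reference, which uses none of the WT libraries, the difference between the cell types was 0.25 ± 0.051 (SD, n = 2 in each of 4 groups). Transcript by transcript, the difference between the KO effects of NPC and ESC was called for 0 of the 289 tested members by edgeR's quasi-likelihood test. For this interaction 0% of the 30021 transcripts tested in the series were called higher in NPC and 0.00333% lower. At an unadjusted p under 0.05, edgeR gave 17 members higher in NPC and 8 lower, against 3.73% and 5.43% of all. DESeq2 called 6 and 1 after adjustment, against 1.38% and 1.9%, and limma called 0, against 0.0133% and 0.0167%.

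The shift was carried by a displacement of the bulk of the members and not by a few of them. In ESC, 135 of the 200 described members (67.5%) had a log2 fold change above 0 in KO, against 51.9% of all described transcripts. The quartiles of the members were -0.11 and 0.57, where all transcripts had -0.38 and 0.44. In NPC, 148 members (74%) lay above 0, against 48.7% of all, with quartiles of -0.01 and 0.73 against -0.41 and 0.35. The upper tail in ESC was not raised, with a 90th percentile of 0.99 among members and 0.99 among all transcripts, while the 10th percentile stood at -0.45 against -0.86. In NPC both tails were displaced, from -0.93 to -0.39 at the 10th percentile and from 0.80 to 1.04 at the 90th. In HET the members' quartiles were -0.29 and 0.31 in ESC, where all transcripts had -0.31 and 0.33. In HET NPC they were -0.25 and 0.16, against -0.32 and 0.29 of all. The 10th and 90th percentiles of the members in HET NPC were -0.61 and 0.48, against -0.73 and 0.68.

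**Figure D2:**
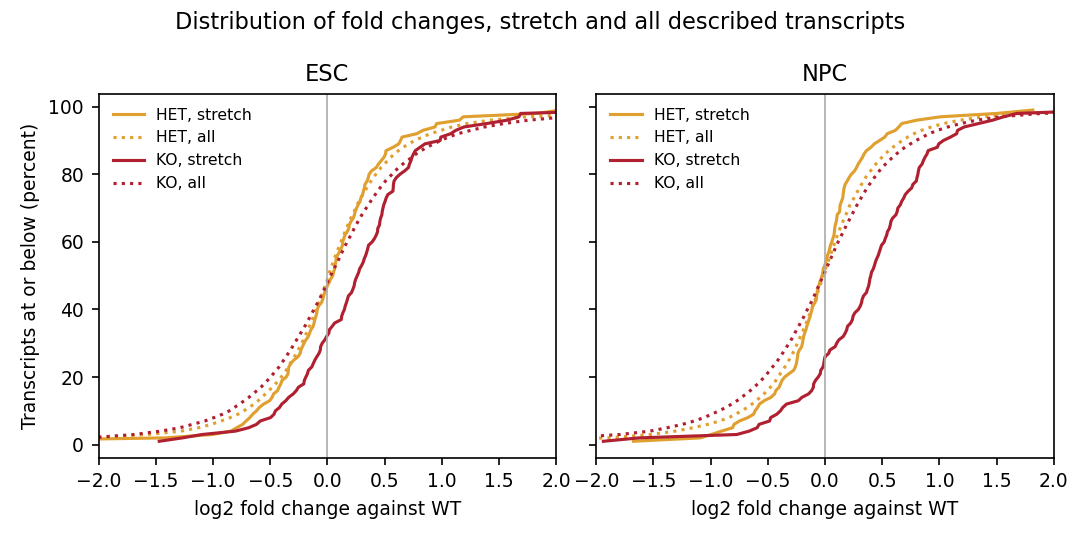
Share of transcripts at or below each log2 fold change against WT (vertical axis, percent; horizontal axis, log2) for the 200 described members (solid) and all 19918 described transcripts (dotted), in HET and KO. The KO members' curve lies to the right of the others over most of its course, with medians of 0.26 in ESC and 0.40 in NPC, and the HET members' curve follows that of all transcripts near the median.

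Counted member by member, both KO libraries exceeded both WT libraries for 79 of the 200 described members in ESC, or 39.5%, where 25.3% of all described transcripts did so. For 26 members both KO libraries lay below both WT libraries, or 13%, against 22.6% of all. In NPC 112 members (56%) were higher without overlap, against 26.5% of all, and 14 (7%) lower, against 27.2%. For HET against WT the counts were 41 higher and 35 lower in ESC, against 20.1% and 18.6% of all described transcripts, and 33 higher and 46 lower in NPC, against 21.2% and 22.7%. KO exceeded HET without overlap for 73 members in ESC and lay below it for 26, against 23.6% and 21.1% of all, and for 122 and 12 members in NPC, against 22.8% and 21.5%. The KO contrasts chose the members, so the KO counts only restate the choice in another form. The split between higher and lower in ESC rested in part on the scaling. With counts scaled by library total alone, which lowered the KO values of the whole series, 53 members were higher and 38 lower in KO ESC, where 16.3% of all described transcripts were higher and 30.2% lower. In HET ESC the same scaling gave 30 members higher and 49 lower, against 15.4% and 23.8% of all. In KO NPC it gave 105 and 18, against 21.9% and 32.4%.

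Standing higher in KO in both cell types is what the run was chosen for, so the counts over both cell types describe that choice. KO exceeded WT without overlap in both ESC and NPC for 54 members (27%), against 10.5% of all described transcripts, and lay below it in both for 1 member, against 10.1%. For 32 members (16%) every KO library exceeded every WT and HET library of its cell type, against 3.41% of all, and for 0 members every KO library lay below them, against 3.54%. For HET against WT, 10 members were higher in both cell types and 13 lower, against 7.41% and 6.75% of all, and for KO against HET 55 and 2, against 8.02% and 7.69%. Across the 200 members the log2 fold changes of KO against WT correlated between ESC and NPC at r = 0.367 (Spearman's rho = 0.378). Across all described transcripts they did so at r = 0.177 (rho = 0.282). With HET as the reference the order was the other way. The members' KO fold changes then correlated at r = 0.0526 (rho = 0.138), and those of all described transcripts at r = 0.107 (rho = 0.236). The cell types share no library. The points share depth within a library, and transcripts are not independent replicates. The fold changes of KO against WT were above 0 in both cell types for 106 members (53%), against 30.9% of all described transcripts. They were below 0 in both for 23 (11.5%), against 30.1% of all.

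**Figure D3:**
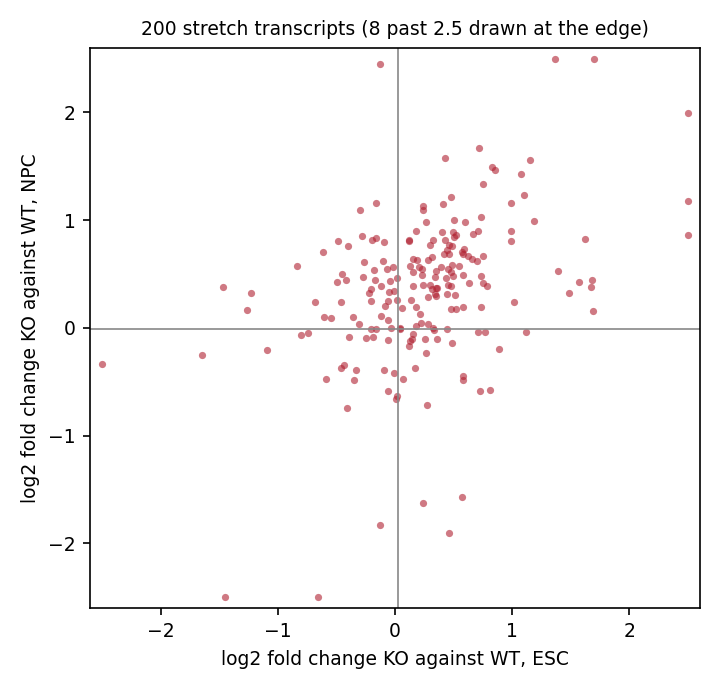
log2 fold change of KO against WT in ESC (horizontal axis) and NPC (vertical axis), 1 point for each of the 200 described members, with grey lines at the medians of all described transcripts and 8 points past 2.5 drawn at the edge. Most points lie above and to the right of the grey lines, and 106 members (53%) are above 0 in both cell types, against 30.9% of all described transcripts.

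In NPC, HET lay nearer to WT than to KO for 143 of the 200 described members (71.5%) by the mean log2 CPM of each group, where 50.4% of all described transcripts did so. In ESC this held for 108 members (54%), close to the 50.7% of all. The run was marked out for a raised KO with HET near WT, so a nearer HET restates that choice and supports nothing. Among transcripts whose KO mean on this scale lay above the WT mean, the shares were 125 of 151 members in NPC (82.8%), against 51.3% of all such transcripts, and 78 of 135 in ESC (57.8%), against 49.3%.

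The KO shift was above 0 in described members of each range of abundance and length, with some variation in size. Relative to all described transcripts in the same range of mean CPM, it was 0.30 in ESC and 0.48 in NPC for the 67 members of 2.01 to 6.32 CPM, 0.18 and 0.43 for the 66 members of 6.38 to 18 CPM, and 0.26 and 0.37 for the 67 members of 18.4 to 1908 CPM. By length it was 0.27 in ESC and 0.43 in NPC for members of 496 to 2264 bases, 0.22 and 0.46 for 2271 to 3346 bases, and 0.24 and 0.35 for 3445 to 12476 bases. In NPC the shift against WT was thus somewhat smaller in more abundant members, and in ESC it had no such order. Against HET the NPC shift had no such order either, at 0.46, 0.39 and 0.43 from the lowest to the highest CPM. These steps were small beside the spread of the members. The distance between the quartiles over the same ranges of CPM was 0.94, 0.634 and 0.517 in ESC and 0.854, 0.666 and 0.685 in NPC, widest in the least abundant members. The 89 tested members below 2 CPM shifted by 0.01 in ESC and by 0.38 in NPC, and were left out of the description above because their values rest on few counts.

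Along the rows the KO shift was present throughout the run. The 200 described members were divided into 8 windows of 25, and the KO shift was above 0 in each of them, from 0.13 to 0.33 in ESC and from 0.25 to 0.51 in NPC. HET ranged from -0.16 to 0.18 in ESC and from -0.11 to 0.10 in NPC over the same windows. Over 788 windows of the same size elsewhere in the series, the 5th and 95th percentiles of the KO shift were -0.44 and 0.45 in ESC and -0.46 and 0.30 in NPC. All 8 windows of the run thus lay inside that range in ESC, and in NPC every window but the one over rows 39498 to 39554, at 0.25, lay above it. The run was chosen along the rows for its raised KO shift, so its place in this range restates that choice and tests nothing.

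The KO shift began at the first rows of the run in ESC and did not end with its last row in either cell type. In the 25 described transcripts before the first member, rows 39085 to 39145, the KO shift was 0.08 in ESC and -0.01 in NPC, and in the first 25 members it was 0.23 and 0.34. Some earlier windows already lay above 0 in NPC, where the 6 before the run ranged from -0.01 to 0.26, while in ESC they ranged from -0.11 to 0.08. In the last 25 members it was 0.13 in ESC and 0.49 in NPC. In the next 25 described transcripts, rows 39602 to 39649, it was 0.32 and 0.44, and in the 25 after those, rows 39650 to 39810, 0.47 and 0.54. It then turned to -0.21 in ESC and -0.40 in NPC over rows 39811 to 39878. HET moved the other way at that point, from -0.01 to 0.16 in ESC and from -0.05 to 0.07 in NPC. With the run continued by those 50 transcripts to row 39810, the KO shift was 0.27 in ESC and 0.42 in NPC.

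**Figure D4:**
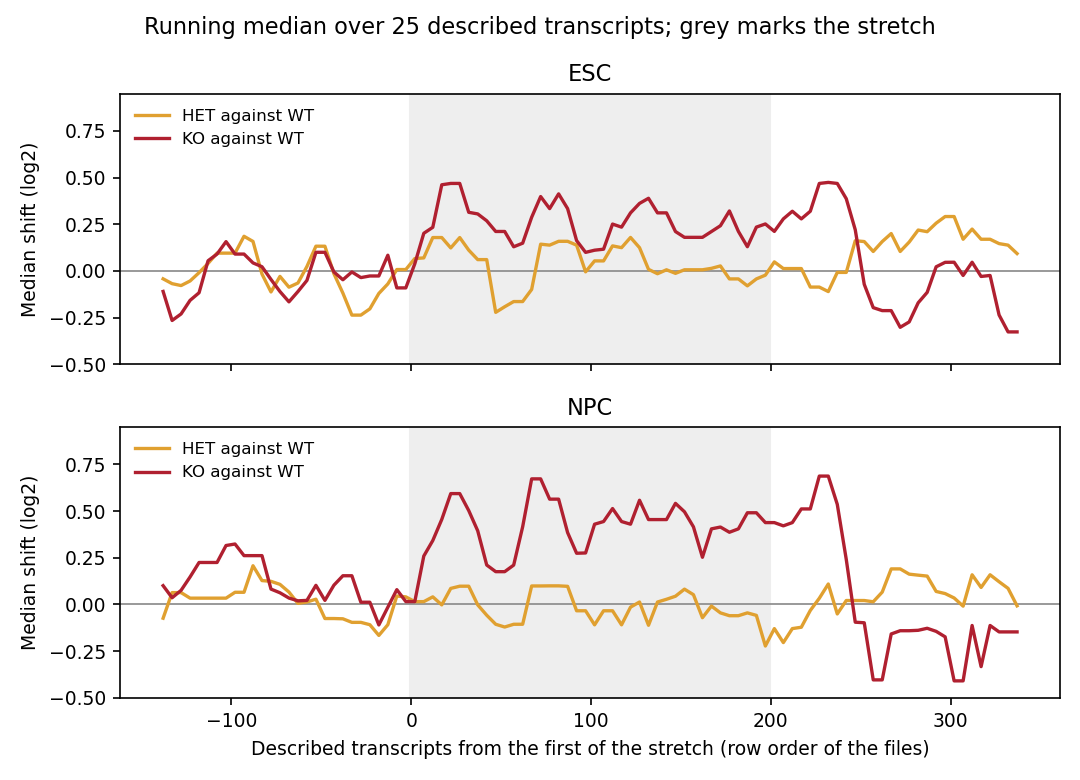
Running median of the shift against WT (vertical axis, log2) over 25 described transcripts in steps of 5 along the row order (horizontal axis, described transcripts counted from the first member), for HET and KO in ESC and NPC, with the run in grey. KO lies above 0 at every point inside the run and over most of the next 50 described transcripts. It then drops to -0.21 in ESC and -0.40 in NPC over rows 39811 to 39878. In ESC it comes back to near 0 further on and falls again, to -0.33 at the last point drawn. HET inside the run lies on both sides of 0.

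The rows at the limits show how single transcripts can depart from their block. The first member, uc008zxy.1 of 2928 bases, stood at 15.2 and 10.2 CPM in WT ESC, 13.7 and 16.3 in HET ESC and 11 and 13.3 in KO ESC. WT overlapped with both mutants there, while the HET libraries lay above the KO libraries. In NPC it stood at 16.1 and 10.4 CPM in WT, 8.85 and 18.3 in HET and 16.8 and 14.6 in KO, again with overlap. The last member, uc009ano.2 of 1315 bases, had log2 fold changes of 0.02 in KO ESC and 0.46 in KO NPC, where its KO libraries at 99.7 and 100.8 CPM lay above the 58.3 to 76.5 CPM of the other NPC libraries. Outside the run, the row before the first member, uc012eeo.1, stood at 8.90 and 15.5 CPM in WT ESC, 6.44 and 0.0838 in HET ESC, 15.4 and 13 in WT NPC and 10.3 and 7.15 in HET NPC, and rounded to 0 counts in all 4 KO libraries. It did not pass the test in either cell type (edgeR adjusted p = 0.129 in ESC and 0.165 in NPC). The row after the last member, uc009anp.1, had log2 fold changes of 1.47 in KO ESC, 1.75 in HET ESC and 0.36 in KO NPC. These rest on few counts, with 2.85 and 0 CPM in WT ESC, 2.92 and 6.62 in HET ESC and 2.31 and 5.56 in KO ESC. KO overlapped with WT in ESC, and it did not pass the test in either cell type (edgeR adjusted p = 0.69 in ESC and 0.982 in NPC).

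With edgeR, no member passed the test on its own in any comparison of genotypes, while DESeq2 and limma, given further on, called some. By edgeR's quasi-likelihood test, adjusted over all 30021 tested transcripts, 0 of 289 members were called at an adjusted p under 0.05 in KO against WT ESC, where 0.716% of all transcripts were called higher and 0.49% lower, and 0 in KO against WT NPC, where 0.0766% were called higher and 0.137% lower. In the comparisons of HET with WT, 0 members were called in ESC (0.02% of all higher and 0.0133% lower) and 0 in NPC (0.00999% and 0%). Between KO and HET, 0 were called in ESC (0.00333% and 0%) and 0 in NPC (0% and 0.00666%). These counts of 0 did not all hold when 1 library was left out.

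At an unadjusted p under 0.05, edgeR gave 39 members higher and 10 lower in KO against WT ESC, where 7.87% and 6.42% of all transcripts were so, and 49 higher and 6 lower in KO against WT NPC, against 5.85% and 6.8%. The members thus lay mostly on the higher side in KO, the direction by which they were chosen. For HET against WT the counts were 10 higher and 7 lower in ESC, against 4.85% and 3.82% of all, and 4 higher and 9 lower in NPC, against 4.03% and 3.87%. For KO against HET they were 23 and 6 in ESC, against 4.81% and 4.49%, and 52 and 5 in NPC, against 3.01% and 4.37%.

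Other tools gave other numbers of members past an adjusted p of 0.05. DESeq2 called 17 members higher and 2 lower in KO against WT ESC, where it called 5.05% and 4.09% of all transcripts, and 37 higher and 4 lower in KO against WT NPC, against 3.66% and 3.79%. In HET against WT it called 2 higher and 5 lower in ESC, against 2% and 1.53%, and 1 and 4 in NPC, against 1.72% and 1.49%. In KO against HET it called 16 and 2 in ESC, against 1.98% and 2.13%, and 29 and 2 in NPC, against 0.989% and 1.46%. Limma called 1 member higher and 1 lower in KO against WT NPC, where it called 0.2% and 0.333% of all. It called 0 members in KO against WT ESC (0.203% and 0.0966% of all), HET against WT ESC (0.07% and 0.0167%), HET against WT NPC (0.0666% and 0.07%), KO against HET ESC (0.00666% in each direction) and KO against HET NPC (0.03% and 0.0533%). Whether members were called at all thus depended on the tool.

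The member closest to the threshold in KO ESC was uc009ajn.2, a transcript of 4692 bases in row 39477. It stood at 31.9 and 35.3 CPM in WT ESC, 45.3 and 45.2 in HET ESC and 57.7 and 58.2 in KO ESC, so that HET lay between the other genotypes and no groups overlapped. On the log2 scale KO exceeded WT by 0.79 (SE 0.159, edgeR adjusted p = 0.0637). In NPC it stood at 33.5 and 44.9 CPM in WT, 39.6 and 44.3 in HET and 54.9 and 47.6 in KO, where KO lay above the other groups and HET overlapped with WT.

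The member closest to the threshold in KO NPC was uc009and.1, of 2586 bases in row 39588. It stood at 59.9 and 70.8 CPM in WT NPC, 63.9 and 65.4 in HET NPC and 113.4 and 114.4 in KO NPC. On the log2 scale KO exceeded WT by 0.80 (SE 0.125, edgeR adjusted p = 0.0566). In ESC its libraries spanned 54.7 to 67.0 CPM over all genotypes, and the KO libraries, at 63.7 and 67.0, overlapped with the WT libraries at 65.5 and 54.7. KO thus stood apart from WT in NPC and not in ESC for this member, though the difference between the cell types was not called.

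The 10 members of highest mean CPM held 45.3% to 57% of the counts of the run, so the summed level of the run is largely theirs. The highest, uc009ajk.1, of 1889 bases in row 39474, did not follow the block in NPC. It stood at 1203 and 932 CPM in WT ESC, 1535 and 1103 in HET ESC and 1637 and 1345 in KO ESC, and at 2743 and 2977 in WT NPC, 2162 and 2064 in HET NPC and 2500 and 2692 in KO NPC. KO lay above WT in ESC and below it in NPC, and both groups of HET and KO NPC libraries lay under the WT ones. The next, uc009ank.2, of 1871 bases in row 39597, followed the block in KO, though in NPC its HET libraries lay above the WT libraries as well. It stood at 567 and 321 CPM in WT ESC, 400 and 425 in HET ESC and 658 and 833 in KO ESC, and at 288 and 268 in WT NPC, 357 and 389 in HET NPC and 763 and 642 in KO NPC. Its KO libraries were the highest of their cell type in both ESC and NPC, with log2 fold changes of 0.75 (SE 0.247, edgeR adjusted p = 0.212) and 1.34 (SE 0.25, edgeR adjusted p = 0.0803).

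**Figure D5:**
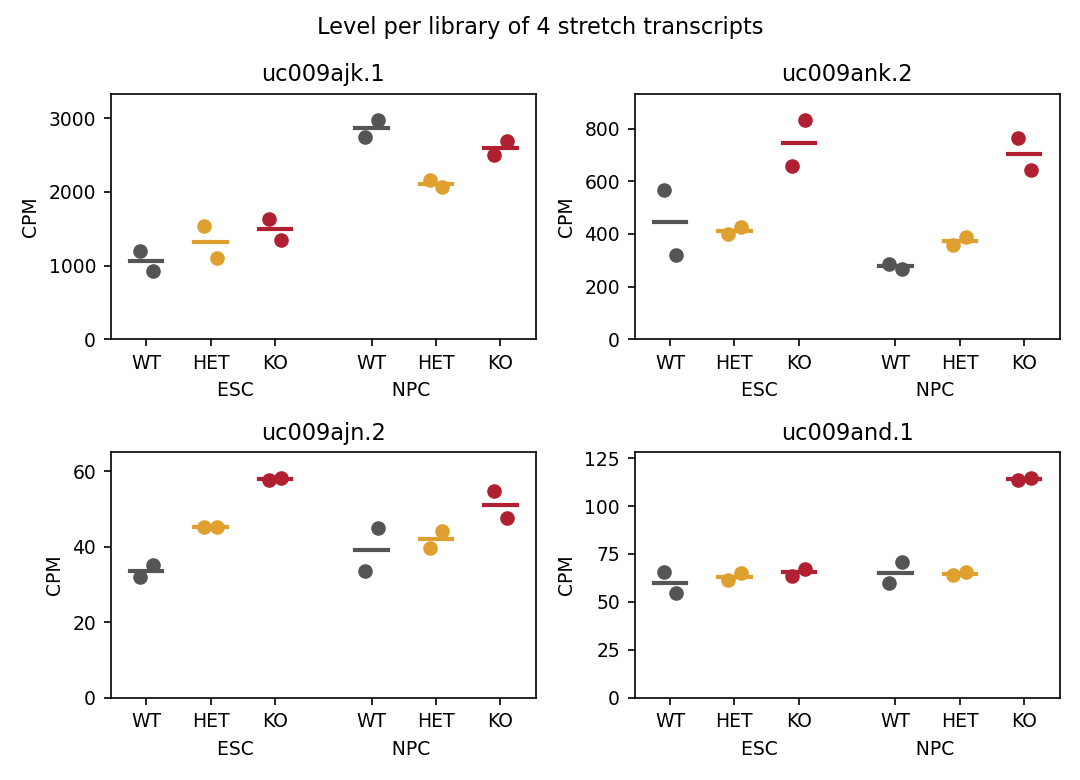
CPM in each library (vertical axis, linear from 0, points for libraries and bars for group means) of the 2 members with the highest mean CPM and the 2 members closest to the threshold in KO ESC and KO NPC, by genotype and cell type. uc009and.1 is high only in KO NPC, at 113.4 and 114.4 CPM, and uc009ajk.1 is lower in KO than in WT in NPC.

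All members together held 0.568% ± 0.04 of the estimated counts in WT ESC, 0.569% ± 0.062 in HET ESC and 0.635% ± 0.097 in KO ESC, and 0.911% ± 0.033 in WT NPC, 0.787% ± 0.057 in HET NPC and 1.04% ± 0.028 in KO NPC (SD, n = 2 each). The KO ESC libraries, at 0.704% and 0.567%, overlapped with the WT ESC libraries at 0.597% and 0.540%, while the KO NPC libraries, at 1.06% and 1.02%, lay above all other NPC libraries. These shares are of all counts, of which uc009vew.1 took 18.5% and 21.2% in WT ESC and 19.7% and 27.4% in KO ESC, and its part in the ESC share was not tested. The summed TMM-scaled level of the members was 5928 ± 643 CPM in WT ESC and 7475 ± 303 in KO ESC, 1.26-fold higher, and 7936 ± 360 in WT NPC and 9615 ± 11.8 in KO NPC, 1.21-fold higher (SD, n = 2 each). On this scale the KO libraries lay above the WT libraries in both cell types, but the rise was not larger in NPC, unlike the median shift of the described members. HET NPC lay below WT NPC, at 0.863 of its share of counts and 0.897 of its summed level. Without the 10 members of highest mean CPM the share of counts in KO was 1.02 times that of WT in ESC and 1.23 times in NPC.

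From ESC to NPC the run shifted by more in KO than in WT or HET. The median shift from ESC to NPC was 0.12 ± 0.088 in WT, 0.06 ± 0.041 in HET and 0.30 ± 0.022 in KO (SD, n = 2 libraries per group). The smaller shifts rested on single libraries. In WT the shift was 0.048 without WT ESC replicate 2 and 0.048 without WT NPC replicate 2, and in HET it was 0.17 without HET NPC replicate 1 and 0.013 without HET NPC replicate 2. In KO it ran from 0.27 to 0.33. This contrast uses the same libraries as the choice of members, so the larger shift in KO is the same quantity as the larger genotype shift in NPC seen from the other side. With all 12 libraries centred together, the relative level was -0.15 ± 0.026 in WT ESC, -0.13 ± 0.0033 in HET ESC and 0.07 ± 0.0013 in KO ESC, and -0.08 ± 0.084 in WT NPC, -0.07 ± 0.04 in HET NPC and 0.38 ± 0.022 in KO NPC (SD, n = 2 each). The 4 KO libraries lay above the 8 others, and the KO NPC libraries stood highest.

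By edgeR's quasi-likelihood test, 17 members rose and 11 fell from ESC to NPC in WT, or 5.88% and 3.81% of the 289 tested, where 6.83% and 5.33% of all 30021 transcripts rose and fell. In HET 16 rose and 14 fell, against 6.3% and 5.16% of all, and in KO 26 rose and 11 fell, against 6.59% and 6.42%. The shares in WT and HET were near or below those of all transcripts. In all 3 genotypes 9 members rose and 7 fell. These 9 were 52.9% of those that rose in WT and 34.6% of those that rose in KO. In KO, 12 of the 26 were called there alone, which does not show that the genotypes differed. The same overlap was not taken over all transcripts, so it is not read as a trait of the run. The counts of calls depended on single libraries when each was left out in turn, and the shares of all transcripts in those fits were not taken. The lowest came without WT NPC replicate 2, HET NPC replicate 2 and KO NPC replicate 1.

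The members that rose most in WT were uc009alq.1 and uc009ahw.2, and those that fell most were uc009afn.2 and uc009afm.1. The transcript uc009alq.1, of 3248 bases, rose from 8.06 and 6 CPM in WT ESC to 39.6 and 44.8 in WT NPC, or by 2.59 in log2 (SE 0.223, edgeR adjusted p = 0.000514). It did so alike in the mutants, where HET NPC had 49.3 and 36.4 CPM and KO NPC 39 and 48.1, and its genotype groups overlapped in NPC. The transcript uc009ahw.2, of 4677 bases, rose from 5.93 and 8.37 to 33.4 and 46.5 CPM in WT (log2 fold change 2.48, SE 0.235, edgeR adjusted p = 0.000743) and stood at 68.6 and 60.1 CPM in KO NPC, above the 33.4 to 46.5 CPM of the WT and HET libraries.

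The transcript uc009afn.2, of 4246 bases, fell from 71.9 and 70.4 CPM in WT ESC to 9.02 and 8.41 in WT NPC, with a log2 change of -3.03 (SE 0.242, edgeR adjusted p = 0.00041). It departed from the block in the other genotype. HET stood highest, with 118.4 and 100.7 CPM in ESC and 29.9 and 18.4 in NPC, while KO had 64.5 and 59.1 CPM in ESC and 7.58 and 9.72 in NPC. The HET difference from WT in NPC, a log2 fold change of 1.47 (SE 0.233), did not pass the test (edgeR adjusted p = 0.161). The transcript uc009afm.1, of 1161 bases, lies 2 rows further on and fell from 19.1 and 21.7 CPM to 2.03 and 4.14 in WT (log2 fold change -2.72, SE 0.448, edgeR adjusted p = 0.00742). Neighbouring rows can hold isoforms of 1 gene, which share reads in the estimate, so these members need not be independent of each other.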

How the data were processed

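The 12 files, 1 per library, hold an estimated count and a TPM value for each of 55419 transcripts. Per the file headers these are kallisto's abundance columns, in which the authors' run shared each read among compatible transcripts (expected counts). The submitters' processing notes name cutadapt 1.16, kallisto and build mm9. The transcript set and the version of kallisto are, like the settings of the run, not given in the sources used here. Values in TPM, scaled by the authors within each library, served 1 alternative only. The lengths are from the same files.

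Members were taken by row, from row 39146 to row 39601. Transcripts with more than 10 counts and values equal to 2 decimals in every library (252 in 99 sets, none a member) were merged, which left 55266 features. Counts were rounded, and filterByExpr with a minimum count of 10 set which features were tested. A single quasi-likelihood fit in edgeR 4.0.16 (R 4.3.3, robust, TMM factors) took the 12 libraries together and gave each group its own mean. The 30021 tested features were adjusted together by Benjamini-Hochberg at 0.05, two-sided. The common dispersion was 0.35, with 6 residual degrees of freedom. Each SE is the log2 fold change over the square root of F. Relative levels used log2 CPM with a prior count of 2. Alternatives used DESeq2 1.42.0 and limma 3.58.1 (on log2(TPM + 0.5)), other scalings and filters, a replicate block and each library left out. The edgeR function was tested on simulated data.

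The members and lists were chosen with earlier results of these data known. Transcripts were named by a fixed rule. It took up to 2 rises and 2 falls per genotype comparison among members with an adjusted p under 0.05, a mean CPM of at least 5 and no overlap. Where none passed in KO it took the member of lowest p. It added the 2 members of highest mean CPM and the first and last row. None passed in HET. The same rule was applied to differentiation in WT, and the neighbouring rows were named, after the data had been seen. Marker and gene lists were not run, since no identifier was paired with a symbol. Replicate numbers pair nothing in the labels.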

Additional observations from a re-analysis of the deposited data

How the results depend on the processing

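The KO shift stayed above 0 in both cell types under every alternative run. Calls of single members depended on the tool. DESeq2 called 19 members in KO against WT ESC, 7 in HET against WT ESC, 18 in KO against HET ESC, 41 in KO against WT NPC, 5 in HET against WT NPC and 31 in KO against HET NPC, where edgeR called 0 in each. For differentiation in WT, HET and KO it called 53, 53 and 67 of the 289 (18.3%, 18.3% and 23.2%, against 21.8%, 22.3% and 23.1% of all tested transcripts), where edgeR called 28, 30 and 37 (9.69%, 10.4% and 12.8%, against 12.2%, 11.5% and 13%). For the interaction it called 7 in KO and 2 in HET (2.42% and 0.692%, against 3.28% and 0.879%). Limma called 2 in KO against WT NPC, and 62, 44 and 70 for differentiation (21.5%, 15.2% and 24.2%, against 19.1%, 16.6% and 17.6%). On the TPM scale without further scaling the median of all described transcripts was itself 0.477 in WT NPC against ESC and 0.374 in KO. Against WT it was -0.088 in KO ESC, -0.017 in HET ESC, -0.19 in KO NPC and -0.115 in HET NPC. The cause of these differences between tools was not tested.

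With each library left out in turn, edgeR called a few members in comparisons of genotypes, only without WT ESC replicate 1 or 2. The shares of all transcripts called in those fits were not taken, so these calls are not read as a trait of the run. The shifts ran from 0.19 to 0.28 for KO ESC, 0.0017 to 0.059 for HET ESC, 0.34 to 0.50 for KO NPC, -0.091 to 0.039 for HET NPC, 0.13 to 0.20 for KO against HET ESC and 0.40 to 0.45 for KO against HET NPC. For differentiation they ran from 0.048 to 0.14 in WT, 0.013 to 0.17 in HET and 0.27 to 0.33 in KO, with 14 to 25, 10 to 31 and 19 to 43 members called. The difference between the KO shifts of NPC and ESC ran from 0.11 to 0.27. The sign of the HET NPC shift thus depended on the library left out.

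With log2 TPM the KO ESC shift was 0.20 against WT and 0.15 against HET. In the inner 100 described members the shifts were 0.27 in KO ESC and 0.067 in HET ESC, and 0.42 for differentiation in KO, where the alternative cutoff of 10 CPM gave 0.34. With the run continued by 50 transcripts they were 0.27 in KO ESC, 0.015 in HET ESC and 0.19 for KO against HET ESC. With members chosen by a mean CPM of at least 2 over the WT and HET libraries the KO ESC shift was 0.25. These last 3 choices were made after the data had been seen. At a mean CPM of at least 10, where 104 members remain to be counted, those higher than WT without overlap numbered 47 in KO ESC, 67 in KO NPC, 23 in HET ESC and 20 in HET NPC (45.2%, 64.4%, 22.1% and 19.2%, against 29.2%, 31.2%, 21.5% and 23.5% of all at that level). The ratio of KO to WT in the share of counts in NPC, 1.15 over all members, was 1.23 without the 10 highest and 1.21 on the TMM scale.

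Same-numbered libraries deviated together at r = -0.202 to 0.187 between groups, so the numbers were not taken to pair them. With the replicate block the shift was 0.23 in KO ESC and 0.41 in KO NPC, 0 members were called in either, and 25, 25 and 36 were called for differentiation in WT, HET and KO. With the numbers of HET NPC crossed, 0 members were called in KO against HET NPC, as without crossing.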
